A study of Mus musculus with 18 samples.

Results

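Expression of 10 stress hormone genes was examined in the granule cell layer of the mouse ventral dentate gyrus, the part of the hippocampus tied to anxiety. The genes form a list set by role, and all 10 were found by symbol among the 34620 genes of the count data. They comprise the corticotropin-releasing hormone (CRH) genes Crhr1, Crhr2 and Crhbp, the corticosteroid receptors Nr3c1 and Nr3c2 with the enzyme Hsd11b1, and the glucocorticoid targets Fkbp5, Sgk1, Tsc22d3 and Zbtb16. RNA-Seq was done on 6 libraries, 2 per group, from male Swiss Webster mice 8 to 12 weeks old. WT males had WT mothers and WT grandmothers from a lineage bred in parallel. F1 males were genetically WT sons of 5HT1A-/+ mothers, which lack 1 copy of the serotonin 1A receptor gene, and their grandmothers are also given as 5HT1A-/+. F2 males were sons of F1 females and WT males, so that their mothers were WT and their grandmothers 5HT1A-/+. The animals of all 3 groups were thus of WT genotype, and no drug or stressor is named for these samples. By the paper's methods F1 came from crosses of 5HT1A-/+ females with 5HT1A-/+ males, so the fathers of F1 carried the mutation too. The comparison asks what differs in males with a parent or grandmother that carried the mutation. In F1 the parts of mother and father cannot be told apart. The tissue of each group came from at least 3 litters. The number of animals per library is not given in the sources used here, and the p-values measure only the spread between libraries.

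Glucocorticoids released in stress enter the brain and bind a pair of nuclear receptors, the mineralocorticoid receptor with high affinity and the glucocorticoid receptor with lower affinity, and the hippocampus is rich in both. The hormone-bound receptors enter the nucleus and switch on target genes through glucocorticoid response elements, and some targets, such as the co-chaperone FKBP51, dampen the receptor in turn. CRH starts the hormonal stress response in the hypothalamus and also acts locally in the hippocampus, where it signals through G protein-coupled receptors and is sequestered by a binding protein.

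The libraries held between 26358165 and 33727936 reads on genes, and 17421 genes, the 10 stress hormone genes among them, had enough reads to be tested. Levels are CPM, reads scaled to library size after TMM normalization. A gene was called where its p from the exact test of edgeR, adjusted by Benjamini and Hochberg's method over all tested genes, gave q under 0.01. F1 and F2 were compared with the same 2 WT libraries. Summed over 8 genes expressed in granule neurons, the level was 2452 to 2767 CPM in every library. The largest part of this sum was Slc17a7, at 1242 to 1654 CPM. Prox1 of the same list was at 228 to 345 CPM, and Plk5 was called lower in F1 and in F2. The sum alone does not settle the share of granule cells. Genes of other cells were present as well. The summed level of 8 oligodendrocyte genes was 1098 and 1994 CPM in WT, 2975 and 2239 in F1, and 1534 and 2897 in F2. Reads outside annotated exons made up 17.7% and 20.7% of uniquely aligned reads in WT, 13.8% and 12.3% in F1, and 13.9% and 17.4% in F2.

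The levels of the 10 genes per exon length were first set in order. Nr3c2, the mineralocorticoid receptor, stood at the top with a mean of 28.8 RPKM (CPM divided by exon length in kilobases) and a range of 22.7 to 32.4 over the 6 libraries. This was above 87.8% of all tested genes, and its lowest library was above the highest of any other gene of the group. Then came Tsc22d3 with a mean of 13.6 RPKM, Fkbp5 with 12.6, Hsd11b1 with 11.9, Zbtb16 with 10.6, Nr3c1 with 10.5, Sgk1 with 9.30 and Crhr1 with 6.69. Within this run the range of each gene overlapped that of its neighbour, so these ranges do not resolve the order of neighbours. Crhbp, at a mean of 3.74 RPKM, lay below every library of Crhr1, and Crhr2, at 0.680 RPKM, lay below every library of Crhbp and above only 19.6% of tested genes. In reads, this run of levels went from 74 to 141 reads per library for Crhr2 up to 4841 to 6137 for Nr3c2. Per exon length, Nr3c2 was thus the more abundant of the corticosteroid receptor transcripts and Crhr1 of the CRH receptor transcripts.

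**Figure D1:**
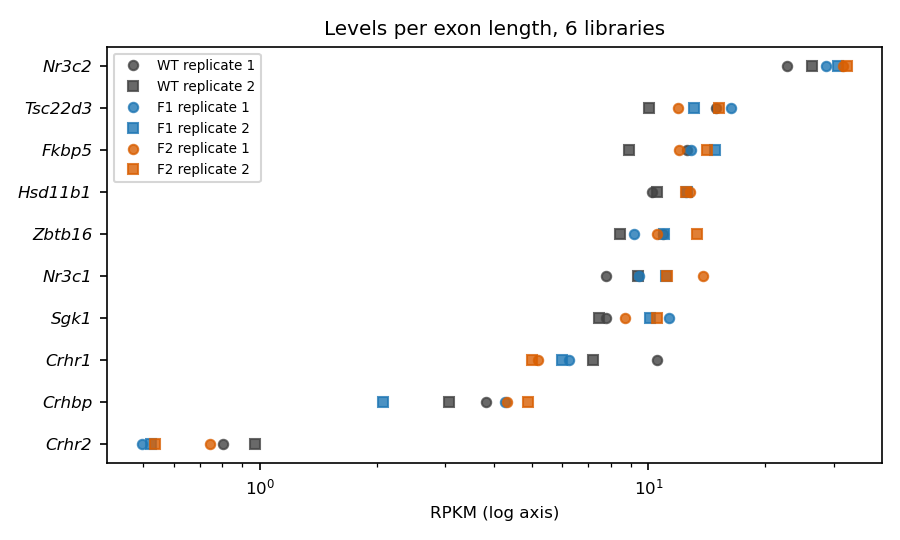
Level of the 10 genes per exon length. The horizontal axis is RPKM on a log axis and each point is 1 library, with WT in grey, F1 in blue and F2 in orange, circles for replicate 1 and squares for replicate 2. Nr3c2 lies clear of the other genes at 22.7 to 32.4 RPKM, 7 genes overlap in a run, and Crhbp and Crhr2 lie below.

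Across the groups, 1 of the 10 genes was called in F1, where 12.3% of all tested genes were (3.77% higher and 8.54% lower), and 2 of 10 in F2, where 12% were (3.86% higher and 8.1% lower). Shares of 10% and 20% of so few genes are close to that background. Sgk1 rose in F1, Crhr1 fell in F2 and Nr3c1 rose in F2. By unadjusted p under 0.05, 6 of the 10 differed from WT in F1 (32.6% of all genes) and 5 in F2 (32.4% of all genes). At q under 0.05, 3 of the 10 were called in F1 (20.8% of all genes) and 3 in F2 (20.7%). The median log2 fold change of the 10 genes was 0.25 in F1 and 0.29 in F2, while that of all tested genes was 0.01 in F1 and -0.00035 in F2. In 6 of the 10 genes no F1 or F2 library reached into the range of WT, 4 of them lying higher (Nr3c1, Nr3c2, Hsd11b1 and Sgk1) and 2 lower (Crhr1 and Crhr2). Among all tested genes this held for 44.7%, with 21% higher and 23.7% lower. The calls depend on the test. DESeq2 called 1 gene in F1 and 3 in F2, the same counts as the likelihood-ratio test in edgeR, and its quasi-likelihood test called 0 in each at the same threshold.

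**Figure D2:**
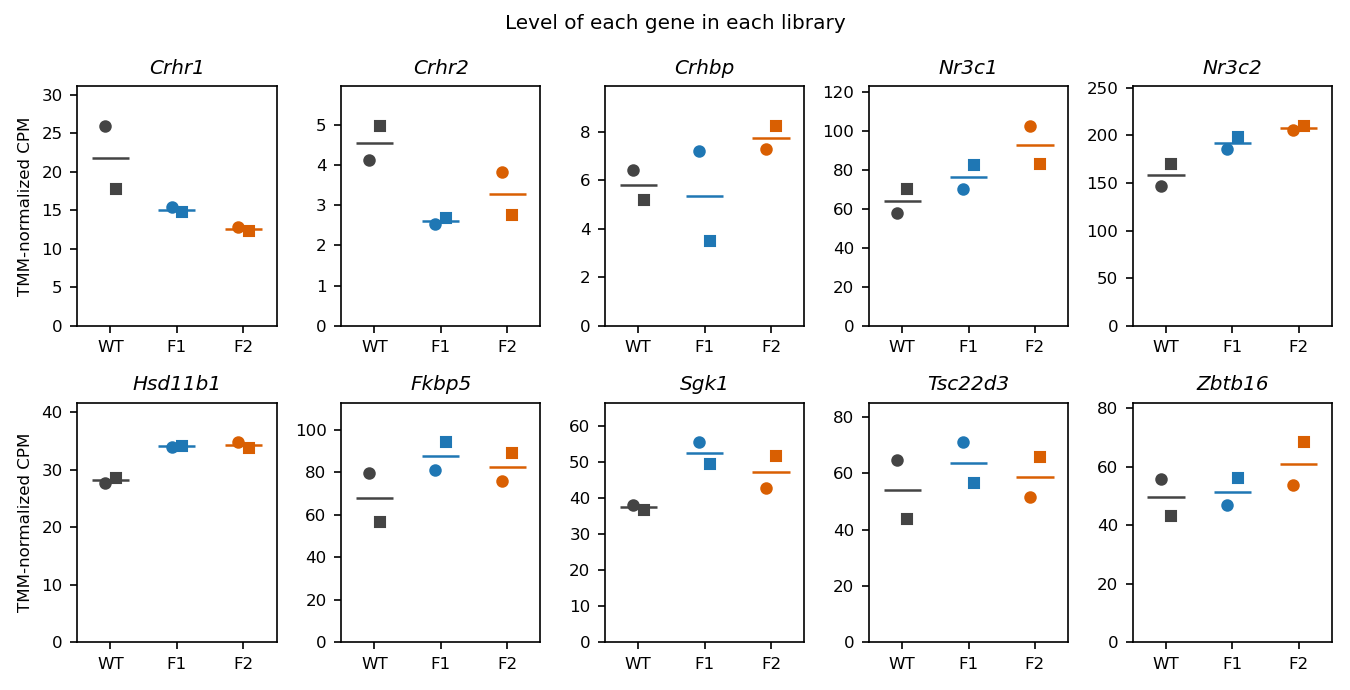
TMM-normalized CPM of each gene in each library, on axes that start at 0. Points are libraries (circle, replicate 1; square, replicate 2) and the bar is the group mean of 2 libraries. Crhr1 runs from 25.9 and 17.7 CPM in WT down to 12.8 and 12.3 CPM in F2, Nr3c2 from 147 and 170 CPM up to 205 and 210 CPM, and the WT libraries are far apart in Crhr1, Fkbp5 and Tsc22d3.

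**Figure D3:**
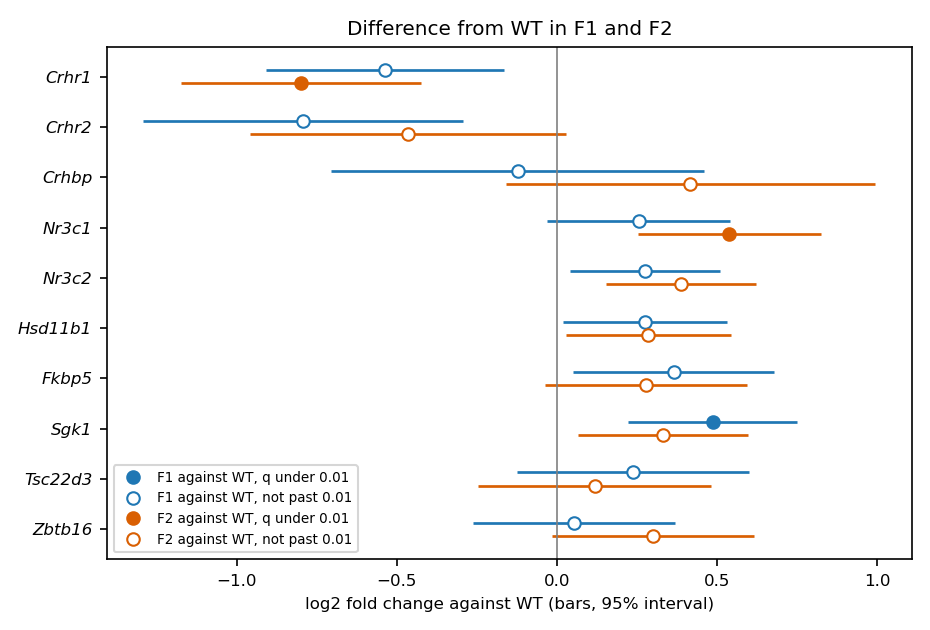
Log2 fold change of each gene in F1 (blue) and F2 (orange) against WT. Bars are 95% intervals and filled points passed q under 0.01 in edgeR's exact test. The filled points are Sgk1 in F1 and Crhr1 and Nr3c1 in F2, and the bars of the CRH genes are the widest.

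In the CRH system, the receptor genes were lower in F1 and F2 than in WT, and 1 of the 3 genes was called, in F2. Crhr1, on chromosome 11 from 103994169 to 104036837 (mm9, plus strand), encodes the main CRH receptor of the forebrain. Its levels were 25.9 and 17.7 CPM in WT, 15.4 and 14.7 CPM in F1, and 12.8 and 12.3 CPM in F2. The F1 and F2 replicates were close to each other and all 4 lay below both WT libraries, which themselves were far apart. From a WT mean of 21.8 ± 5.78 CPM (SD, n = 2) it fell in F2 to 12.6 ± 0.326 CPM, a 0.574-fold level with a 95% interval of the log2 fold change of -1.18 to -0.42 (adjusted p = 0.00057 by edgeR's exact test). In F1 the log2 fold change of -0.54 had an interval of -0.91 to -0.17 and did not pass (adjusted p = 0.0281 by edgeR's exact test). The size of the difference rests on the WT library used. Without WT replicate 1 the F2 value was -0.49 and the call was lost (adjusted p = 0.111 by edgeR), and the F1 value was -0.23 (adjusted p = 0.511). Without WT replicate 2 the F1 value was -0.77 and passed (adjusted p = 0.00131 by edgeR). The F2 call was also lost without either F2 library (adjusted p = 0.0294 and 0.0349). Crhr1 is among the genes that the study listed from these samples as changed in both F1 and F2, so its direction is not independent evidence. Here it passed the main threshold in F2 alone. At 0.05, the threshold given in the paper's methods, it passed in F1 as well (adjusted p = 0.0281 by edgeR's exact test). The paper also lists it among genes whose DNA methylation differed in both F1 and F2, which was not examined here. In bulk tissue, fewer cells that express a gene and less RNA per cell cannot be told apart.

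Crhr2, on chromosome 6 from 55040043 to 55083010 (mm9, minus strand), encodes the receptor with preference for urocortins. It was at 4.12 and 4.96 CPM in WT, 2.54 and 2.69 CPM in F1, and 3.81 and 2.75 CPM in F2. The F1 libraries were the lowest, and the groups did not overlap. The log2 fold change was -0.79 in F1 (95% interval -1.29 to -0.29, adjusted p = 0.0139 by edgeR's exact test) and -0.47 in F2 (-0.96 to 0.03, adjusted p = 0.194), neither past the threshold. Of the pair of receptors, Crhr1 had the higher level per exon length in every library. The ratio of Crhr1 to Crhr2 in RPKM was 13.1 and 7.43 in WT, 12.6 and 11.4 in F1, and 6.97 and 9.32 in F2. These ratios overlapped between WT and both other groups.

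Crhbp, on chromosome 13 from 96201326 to 96214786 (mm9, minus strand), encodes the secreted protein that binds CRH and is known in hippocampus from interneurons. Its levels were 6.44 and 5.18 CPM in WT, 7.20 and 3.50 CPM in F1, and 7.29 and 8.24 CPM in F2. The F1 replicates were 1.03 apart on the log2 scale, a gap exceeded by 3.07% of tested genes in that group, and they lay on either side of WT. Its log2 fold change was -0.12 in F1 (95% interval -0.70 to 0.46) and 0.42 in F2 (-0.16 to 0.99), and neither passed. The summed level of 8 interneuron genes was split the same way within F1, at 876 and 633 CPM. It was 650 and 720 CPM in WT, ordered against Crhbp, and 726 and 809 CPM in F2. Its part in the Crhbp values was not tested.

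Of the ligands, Crh was at 3.0 and 1.44 CPM in WT, 2.28 and 2.01 CPM in F1, and 1.68 and 2.71 CPM in F2. The groups overlapped, and the 95% interval of the log2 fold change, -0.77 to 0.64 in F1, leaves room for a large difference. The urocortin genes Ucn, Ucn2 and Ucn3 had 8 reads or fewer in every library and were not tested.

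The corticosteroid receptor genes and Hsd11b1 were all higher in every F1 and F2 library than in both WT libraries, and 1 of the 3, Nr3c1, was called, in F2. Nr3c1, on chromosome 18 from 39570199 to 39650955 (mm9, minus strand), encodes the glucocorticoid receptor. It was at 57.7 and 70.0 CPM in WT, 70.1 and 82.2 CPM in F1, and 102 and 83.0 CPM in F2. The step from the higher WT library to the lower F1 library was small, and the F2 libraries stood clear of WT. From a WT mean of 63.9 ± 8.63 CPM (SD, n = 2) it rose in F2 to 92.7 ± 13.8 CPM, or 1.45-fold, with a log2 fold change of 0.54 (95% interval 0.25 to 0.82, adjusted p = 0.00263 by edgeR's exact test). In F1 the log2 fold change was 0.25 (-0.03 to 0.54, adjusted p = 0.213). The F2 call was lost without WT replicate 1 (adjusted p = 0.118 by edgeR) and without F2 replicate 1 (adjusted p = 0.176). Genes of astrocytes and microglia moved with it. So did the summed level of 9 endothelial and mural genes, at 205 and 232 CPM in WT, 240 and 304 CPM in F1, and 300 and 274 CPM in F2. The sum of 8 oligodendrocyte genes was ordered against Nr3c1 within F1, at 2975 and 2239 CPM, and within F2, at 1534 and 2897 CPM. Summed over 8 astrocyte genes the level was 2057 and 2313 CPM in WT and 3500 and 2896 CPM in F2, where 4 of the 8 were called higher, and F2 replicate 1 was highest in this sum as in Nr3c1. Of 8 microglia genes 5 were called higher in F2, with sums of 128 and 130 CPM in WT and 197 and 171 CPM in F2. Over all tested genes 3.86% were called higher in F2. The quasi-likelihood test called 1 of the 8 astrocyte genes and 0 of the 8 microglia genes there. The part of these lists in the Nr3c1 result was not tested.

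Nr3c2, on chromosome 8 from 79423341 to 79768911 (mm9, plus strand), was at 147 and 170 CPM in WT, 186 and 199 CPM in F1, and 205 and 210 CPM in F2. The groups followed each other without overlap. Its log2 fold change was 0.28 in F1 (95% interval 0.04 to 0.51, adjusted p = 0.0856 by edgeR's exact test) and 0.39 in F2 (0.15 to 0.62, adjusted p = 0.0106). The F2 value lay at the threshold, and its side of it changed with the choices made. Adjusted p was 0.00408 with DESeq2 and 0.00741 with edgeR's likelihood-ratio test, but 0.0257 with the quasi-likelihood test. In the exact test it was 0.00732 without WT replicate 2 and 0.212 without WT replicate 1. Of its exon bases, 247 (3.82%) are shared with a long noncoding RNA on the opposite strand, Gm10649, and the strand setting of the counting is not given in the sources used here.

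The balance of the receptors was compared within each library. The ratio of Nr3c2 to Nr3c1 in RPKM was 2.92 and 2.79 in WT, 3.04 and 2.77 in F1, and 2.30 and 2.90 in F2. The mean ratio was 2.86 ± 0.0915 (SD, n = 2) in WT, 2.91 ± 0.187 in F1 and 2.60 ± 0.425 in F2, and the groups overlapped. The lowest ratio was that of F2 replicate 1, the library with the highest Nr3c1.

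Hsd11b1, on chromosome 1 from 195047824 to 195090248 (mm9, minus strand), encodes the enzyme that regenerates active corticosterone inside cells. It was at 27.7 and 28.6 CPM in WT, 33.9 and 34.1 CPM in F1, and 34.7 and 33.8 CPM in F2. Replicates differed little in any group. The mean was 1.21-fold that of WT in F1 and 1.22-fold in F2, and the log2 fold change was 0.28 in F1 (95% interval 0.02 to 0.53, adjusted p = 0.121 by edgeR's exact test) and 0.28 in F2 (0.03 to 0.54, adjusted p = 0.11), neither past the threshold. F1 and F2 differed from each other by 0.01 on the log2 scale, with an interval of -0.25 to 0.26.

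The 4 glucocorticoid targets had mean levels above WT in F1 and in F2, and 1 of them, Sgk1, was called, in F1. Sgk1, on chromosome 10 from 21601990 to 21719709 (mm9, plus strand), encodes a kinase that regulates ion channels and transporters and is a classical rapid target of both receptors. Its RefSeq promoter windows were searched together with those of all other genes for the inverted repeat of the glucocorticoid response element, AGAACA and TGTTCT with any 3 bases between them. The repeat reads the same on both strands. Of 32851 windows, each 250 bases before to 50 after a start site, 3 (0.00913%) held it, and 1 of them was Sgk1's. Sgk1 has 6 such windows, and the one with the match lies at chr10:21993640-21993939 on the plus strand of GRCm38.p6, a build other than that of the counts. It is shown because it is the only window of these genes with the full repeat, which stands in capitals 189 to 175 bases before that start.
Sgk1: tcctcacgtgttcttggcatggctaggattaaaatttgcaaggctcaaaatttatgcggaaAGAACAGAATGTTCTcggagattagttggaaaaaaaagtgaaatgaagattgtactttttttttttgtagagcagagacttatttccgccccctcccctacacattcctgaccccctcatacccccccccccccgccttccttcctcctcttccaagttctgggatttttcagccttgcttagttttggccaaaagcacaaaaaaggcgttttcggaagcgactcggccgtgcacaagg
Windows were found for 8 of the 10 genes, and none was given for Nr3c1 or Zbtb16. The match describes the sequence alone, since binding was not measured.

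The level of Sgk1 was 38.2 and 36.6 CPM in WT, 55.3 and 49.4 CPM in F1, and 42.6 and 51.5 CPM in F2. WT replicates were close, and all 4 other libraries lay above them. The mean rose 1.40-fold in F1, from 37.4 ± 1.11 CPM (SD, n = 2) to 52.3 ± 4.22 CPM, with a log2 fold change of 0.49 (95% interval 0.22 to 0.75, adjusted p = 0.00364 by edgeR's exact test). In F2 the log2 fold change was 0.33 (0.07 to 0.60, adjusted p = 0.0642). The F1 call was lost without WT replicate 1 (adjusted p = 0.0332 by edgeR), without WT replicate 2 (0.0545) and without F1 replicate 1 (0.0455), while the log2 fold change stayed between 0.41 and 0.57. Sgk1 and the oligodendrocyte genes were ordered alike within F1 and within F2. Their sum was 2975 and 2239 CPM in F1 and 1534 and 2897 CPM in F2, though in WT, at 1098 and 1994 CPM, it differed widely where Sgk1 did not. Of the 8 oligodendrocyte genes, 3 were called higher in F1 and 2 in F2, against 3.77% and 3.86% of all tested genes. The quasi-likelihood test and DESeq2 called 0 of them in either. The summed level of 8 immediate early genes, which mark recent neuronal activity, was 347 CPM in F1 replicate 1 against 149 to 179 CPM in the other 5 libraries, and that library also had the highest Sgk1. The part of either list in the Sgk1 result was not tested.

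Fkbp5, on chromosome 17 from 28536040 to 28654469 (mm9, minus strand), encodes the co-chaperone FKBP51, which lowers the affinity of the glucocorticoid receptor for its hormone. It was at 79.6 and 56.4 CPM in WT, 81.2 and 93.9 CPM in F1, and 75.7 and 89.2 CPM in F2. WT replicate 1 lay close to the lower F1 and F2 libraries, and WT replicate 2 lay well below. Against WT the log2 fold change was 0.36 in F1 (95% interval 0.05 to 0.68, adjusted p = 0.0901 by edgeR's exact test) and 0.28 in F2 (-0.04 to 0.59, adjusted p = 0.223). Without WT replicate 1 the F1 value was 0.64 and passed (adjusted p = 0.00356 by edgeR), so this gene turns on which WT library is used.

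Tsc22d3, on chromosome X from 137074067 to 137135198 (mm9, minus strand), encodes the glucocorticoid-induced leucine zipper protein GILZ. It was at 64.6 and 43.6 CPM in WT, 70.9 and 56.7 CPM in F1, and 51.6 and 65.9 CPM in F2. All 3 groups overlapped. Against WT the log2 fold change was 0.24 in F1 (95% interval -0.13 to 0.60) and 0.12 in F2 (-0.25 to 0.48), and both values changed sign when WT replicate 2 was left out, to -0.01 and -0.13.

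Zbtb16, on chromosome 9 from 48462416 to 48644050 (mm9, minus strand), encodes the transcription factor PLZF, a glucocorticoid target in many tissues. It was at 55.7 and 43.2 CPM in WT, 46.8 and 56.0 CPM in F1, and 53.6 and 68.2 CPM in F2. The groups overlapped, and F2 replicate 2 was the highest library. The log2 fold change was 0.05 in F1 (95% interval -0.26 to 0.37) and 0.30 in F2 (-0.02 to 0.62), and neither passed.

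WT replicate 1 was above WT replicate 2 in Crhr1, Fkbp5, Tsc22d3 and Zbtb16, by 0.54, 0.50, 0.57 and 0.37 on the log2 scale. The median gap between the WT replicates over all tested genes was 0.16. Only 9.64%, 11.6%, 8.99% and 19.1% of tested genes had a larger gap than these. In Sgk1 and Hsd11b1 the WT replicates differed by 0.06 and 0.04, below the median gap.

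Between F2 and F1, 0 of the 10 genes were called by edgeR's exact test, where 0.74% of all tested genes were, and 0 had an unadjusted p under 0.05, against 8.64% of all genes. DESeq2 also called 0, as did the quasi-likelihood test and the likelihood-ratio test in edgeR. The log2 fold change of F2 against F1 was -0.26 for Crhr1 (95% interval -0.64 to 0.12, adjusted p = 0.844 by edgeR's exact test), 0.28 for Nr3c1 (-0.00043 to 0.57, adjusted p = 0.579) and -0.15 for Sgk1 (-0.42 to 0.11, adjusted p = 0.906). The 3 genes called in a single generation were therefore not shown to differ between the generations. The widest interval was that of Crhbp, -0.04 to 1.12, whose F2 libraries both lay above its F1 libraries. Without F1 replicate 1 its log2 fold change was 1.15 and passed (adjusted p = 0.00489 by edgeR).

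How the genes followed each other over the 6 libraries is given as a description, since the points share the group differences and the WT libraries. In log2 CPM, Nr3c2 followed Hsd11b1 (Pearson r = 0.918) and Nr3c1 (r = 0.888) and ran opposite to Crhr1 (r = -0.987), while Crhr2 ran opposite to Sgk1 (r = -0.977). The targets Fkbp5 and Tsc22d3 had r = 0.735, and Nr3c1 had r = 0.202 with Fkbp5 and -0.269 with Tsc22d3. Among the 13679 genes whose mean was 50 reads or more, those most like Crhr1 were Adpgk and Pigb (r = 0.994 and 0.993), Zfp146 was most like Nr3c1 (r = 0.997), and those most like Sgk1 were Tkt and Lrfn2 (r = 0.988 and 0.984).

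Around the receptors, 10 genes of the chaperone machinery that folds and holds them were measured, and 0 of 10 were called in F1 or in F2 by edgeR's exact test, with 1 and 4 at an unadjusted p under 0.05 and 0 by the other tools. Over all genes, 12.3% and 12% were called and 32.6% and 32.4% had such a p, so that 4 of 10 is near the background. The median log2 fold change was 0.13 in F1 and -0.05 in F2. The best expressed, Hsp90ab1, was at 1771 and 1538 CPM in WT, 1965 and 1988 CPM in F1, and 1613 and 1732 CPM in F2. Hsp90aa1, the inducible form of HSP90, had log2 fold changes of 0.12 in F1 (95% interval -0.11 to 0.36) and -0.25 in F2 (-0.48 to -0.01).

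Of 10 coactivators and corepressors of nuclear receptors, 0 were called in F2 by edgeR's exact test, with 2 at an unadjusted p under 0.05 (32.4% of all genes) and 0 by the other tools, and the median log2 fold change was 0.05. The corepressor gene Ncor1 was at 221 and 224 CPM in WT, 217 and 271 CPM in F1, and 257 and 251 CPM in F2. Its log2 fold changes of 0.13 in F1 and 0.19 in F2 did not pass.

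Among genes of steroid metabolism and transport, 9 of 10 were tested. In F1 0 were called, with 2 at an unadjusted p under 0.05, against 32.6% of all genes, and 0 by the other tools. In F2 1 was called (11.1%, against 12% of all tested genes). DESeq2 and the likelihood-ratio test also called 1 in F2, and the quasi-likelihood test called 0. Hsd11b2, which encodes the enzyme that inactivates corticosterone, had 5 reads or fewer in every library and was not tested, so that of the enzyme pair only Hsd11b1 was measurable. Abcb1a, which encodes a drug and steroid pump of the blood-brain barrier, was at 8.38 and 7.78 CPM in WT, 10.2 and 14.0 CPM in F1, and 14.9 and 13.6 CPM in F2. It rose in F2, with a log2 fold change of 0.82 (adjusted p = 0.000689 by edgeR's exact test), and had 0.58 in F1 (adjusted p = 0.0229). The F2 call was lost without any 1 of the WT or F2 libraries, at adjusted p up to 0.0478 by edgeR, while the log2 fold change stayed between 0.76 and 0.89. Abcb1a has a close paralog, Abcb1b, and reads that fit both are not in the counts. The study lists ABCB1, without naming the paralog, among the genes changed in both F1 and F2, so the difference is not independent evidence. The summed level of 9 endothelial and mural genes was 205 and 232 CPM in WT, 240 and 304 CPM in F1, and 300 and 274 CPM in F2. In F2, 2 of the 9 were called higher, against 3.86% of all tested genes, and the quasi-likelihood test called 1. The part of this list in the Abcb1a result was not tested. Cyp7b1, an oxysterol and steroid hydroxylase gene, was at 36.3 to 40.2 CPM in WT and F1 and at 35.0 and 38.2 CPM in F2.

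A wider list of 25 further genes known to be induced by glucocorticoids had 24 tested. In F1, 2 of 24 (8.33%) were called, both higher. Of all tested genes 3.77% were called higher and 12.3% in either direction. In F2, 5 of 24 (20.8%) were called, all higher. Of all tested genes 3.86% were called higher there and 12% in either direction. In the list 0 were called lower in F1 or F2. By edgeR's quasi-likelihood test the counts were 0 in F1 and 4 in F2. Without F2 replicate 1 the F2 count was 2, and without WT replicate 1 it was 3, while in F1 it was 0 without WT replicate 2. The list's median log2 fold change was 0.12 in F1 and 0.23 in F2. In F2, 19 of the 24 values were above 0, and in F1 15 were. No such list was tested as a set, and several of its genes also respond to other signals. The list was chosen with earlier results of these data known, so its shares are not independent evidence.

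The largest differences were in Irs2 and Klf9. Irs2, which encodes an adaptor of the insulin receptor, was at 12.6 and 10.5 CPM in WT, 14.8 and 22.7 CPM in F1, and 24.5 and 24.3 CPM in F2. The F2 libraries agreed closely, and the F1 libraries fell between WT and F2. Irs2, like Crhr1, is among the genes that the study listed as changed in both F1 and F2, so its difference is not independent evidence. The log2 fold change was 0.70 in F1 (standard error 0.20, adjusted p = 0.00537 by edgeR's exact test) and 1.08 in F2 (standard error 0.20, adjusted p = 4.33e-06). Klf9, which encodes a Krüppel-like transcription factor, was at 87.4 and 76.8 CPM in WT, 105 and 154 CPM in F1, and 144 and 150 CPM in F2. It rose by a log2 fold change of 0.66 in F1 (standard error 0.16, adjusted p = 0.000723 by edgeR's exact test) and of 0.84 in F2 (standard error 0.16, adjusted p = 7.27e-06). By group mean and in the split within F1, both genes moved with the astrocyte list and with the endothelial and mural list. Within WT both genes were ordered against these sums, and within F2 Klf9 was. The sums of 8 microglia genes (154 and 177 CPM) and of 3 dorsal granule genes (136.5 and 188.2 CPM) also split this way within F1. Some other lists split the opposite way, among them 3 ventral granule genes at 104.2 and 64.9 CPM in F1. There the sum was 2975 and 2239 CPM for oligodendrocyte genes, 876 and 633 CPM for interneuron genes, and 326.5 and 218.8 CPM for genes of mossy cells and CA fields. The astrocyte sum was 2057 and 2313 CPM in WT, 2497 and 3130 CPM in F1, and 3500 and 2896 CPM in F2, and the endothelial and mural sum given beside Abcb1a was likewise higher in F1 replicate 2 than in F1 replicate 1. Their part in these results, and in the list's F2 count, was not tested. In F2 both calls held under each alternative setting and with each library left out, with adjusted p no higher than 0.00398 for Irs2 and 0.0046 for Klf9 by the edgeR tests and DESeq2. In F1 both calls were lost without F1 replicate 2, at log2 fold changes of 0.37 for Irs2 and 0.37 for Klf9 (adjusted p = 0.22 and 0.0825 by edgeR), and without WT replicate 2 (adjusted p = 0.121 and 0.04). The F1 call of Irs2 was also lost without WT replicate 1 (adjusted p = 0.0195 by edgeR).

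In F2, 3 further genes of the list were called. Glul, which encodes glutamine synthetase and marks astrocytes, was at 455 and 368 CPM in WT and 625 and 610 CPM in F2 (log2 fold change 0.59, adjusted p = 0.000207 by edgeR's exact test). Txnip, an inhibitor of thioredoxin, was at 8.50 and 9.05 CPM in WT and 15.3 and 14.2 CPM in F2 (log2 fold change 0.75, adjusted p = 0.000498 by edgeR's exact test). The metallothionein gene Mt2 was at 55.3 and 66.9 CPM in WT and 80.8 and 85.2 CPM in F2 (log2 fold change 0.44, adjusted p = 0.0067 by edgeR's exact test). These calls were less stable. Without F2 replicate 1 all 3 were lost (adjusted p = 0.0161 for Glul, 0.0422 for Txnip and 0.0537 for Mt2 by edgeR). Without WT replicate 1, Txnip and Mt2 were lost (adjusted p = 0.0342 and 0.187), without WT replicate 2 Glul (0.0303), and without F2 replicate 2 Mt2 (0.102). The astrocyte sum given beside Nr3c1 was also higher in F2 than in WT, though within WT it was ordered against Glul. Its part in the Glul result was not tested. Against these, Per1, the clock gene that responds fast to glucocorticoids, was at 81.3 and 67.0 CPM in WT, 61.3 and 59.2 CPM in F1, and 68.3 and 66.3 CPM in F2. It had a log2 fold change of -0.30 in F1 (adjusted p = 0.0747 by edgeR's exact test) and of -0.14 in F2 (adjusted p = 0.48). Per1 was named after its value was seen.

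**Figure D4:**
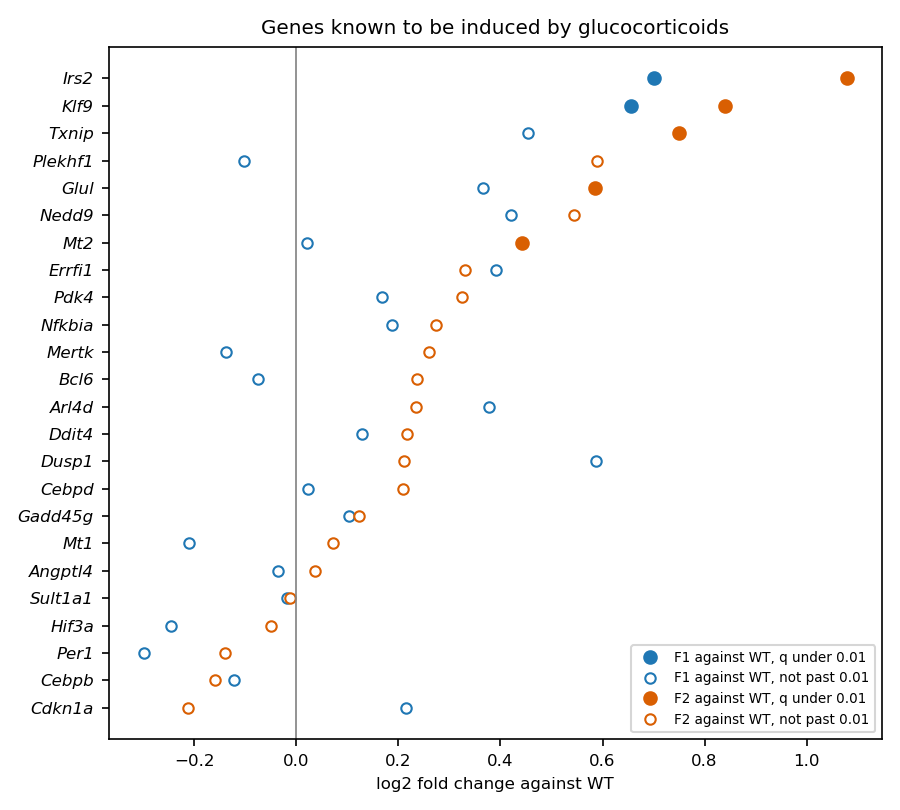
Log2 fold change against WT of the 24 tested genes known to be induced by glucocorticoids, in F1 (blue) and F2 (orange), ordered by the F2 value. Filled points passed q under 0.01 in edgeR's exact test. The filled points, 2 in F1 and 5 in F2, are all above 0, and Irs2 and Klf9 lead in both.

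A looser form of the element, GNACA and TGTNC with any 3 bases between them, also reads the same on both strands and takes in every full repeat. It occurred in 156 of the 32851 windows (0.475%). Of the 8 stress hormone genes with windows it was found in Sgk1 alone, at the site shown above, and of 23 listed induced genes with windows in Mt1 and Txnip. These sites are shown with 8 bases on either side, the match in capitals, to set them beside that of Sgk1. They lie on the plus strand of GRCm38.p6, for Mt1 at chr8:94178995-94179007, 94 to 82 bases before the start, and for Txnip at chr3:96557785-96557797, 172 to 160 bases before it.
Mt1: cactatagGGACATGATGTTCcacacgtc
Txnip: cgctaggaGCACACCGTGTCCacgcgccc
Txnip was called higher in F2, while Mt1 had log2 fold changes of -0.21 in F1 and 0.07 in F2 that did not pass. No match was found in the windows of Klf9 or Irs2, which says only that these letters are not there.

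**Figure D5:**
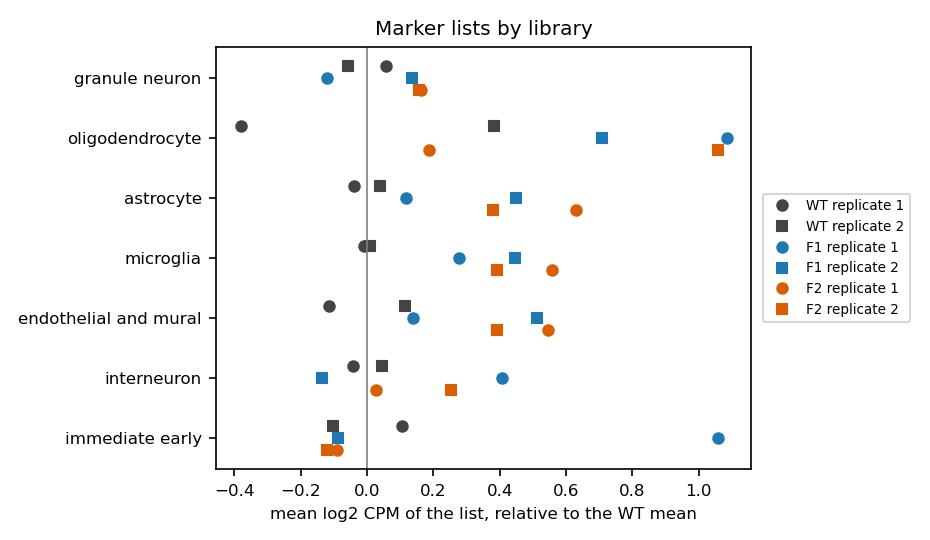
Mean log2 CPM of each cell type list in each library, relative to the mean of the 2 WT libraries. WT is in grey, F1 in blue and F2 in orange, with circles for replicate 1 and squares for replicate 2. The WT libraries are far apart in the oligodendrocyte list, the 4 F1 and F2 libraries lie above WT in the astrocyte and microglia lists, and F1 replicate 1 stands alone in the immediate early list.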

How the data were processed

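RNA-Seq was analysed in 6 libraries. Microdissected ventral dentate gyrus (200 um sections) was sequenced as single-end reads of 50 bp. The authors aligned reads to mm9 with TopHat without new junctions, counted them per gene with HTSeq (intersection-strict), and deposited raw counts without normalization. This counting drops reads with several alignments, reads reaching beyond annotated exons and reads shared between genes. Strand setting and annotation release are not given in the sources used here. The submitters' processing notes name TopHat2 2.0.2.

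The 10 genes and the gene lists were chosen with earlier results of these data known. Groups follow the labels. Low counts were removed by filterByExpr, libraries were scaled by TMM, and groups were compared by the exact test of edgeR 4.0.16 under R 4.3.3, with common then tagwise dispersion over all 6 libraries, and Benjamini-Hochberg adjustment over 17421 genes. The study names edgeR with tagwise dispersion and default parameters but not the test, which was chosen here. The threshold was 0.01. The common dispersion of 0.0113 is a coefficient of variation of 10.6% between replicates. The number of libraries, more than depth, limits precision. Standard errors come from mean counts and tagwise dispersion. Levels per length and positions use GENCODE M1 on mm9 (33294 symbols matched), and promoter windows are RefSeq's on GRCm38.p6.

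Named beside the 10 genes were, of each pathway list, up to 5 with the lowest adjusted p past the threshold in F1 or F2, or, where fewer than 2 passed, up to 2 with the highest mean CPM, and for each called gene the 2 genes most correlated with it. Some genes that this rule covers are not reported here. Replicates were not duplicates: chi-square per degree of freedom over genes was 25.3 between the WT libraries, 20.0 between those of F1 and 24.2 between those of F2. Alternatives were the likelihood-ratio and quasi-likelihood tests in edgeR with and without the replicate block, DESeq2 1.42.0, other normalizations, filters and dispersions, a threshold of 0.05, offsets for GC content and exon length, and each library left out. Some of the procedures were tested on simulated data. The 12 bisulfite sequencing samples were not analysed here.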

Additional observations from a re-analysis of the deposited data

How the results depend on the processing

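Of the 10 genes, edgeR's exact test called 1 in F1, 2 in F2 and 0 between F2 and F1, and of all tested genes 2144, 2084 and 129. With the quasi-likelihood test the counts of the 10 genes were 0 in F1 and 0 in F2, and those of all genes 1029, 997 and 2, while adjusted p was 0.0182 for Sgk1 in F1 and 0.0109 for Crhr1 and 0.021 for Nr3c1 in F2. At a threshold of 0.05, 3 of the 10 were called in F1, and of all genes 3623, 3606 and 230. Leaving out each library in turn gave 0 to 1 of the 10 genes in F1, 0 to 3 in F2 and 0 to 1 between F2 and F1, and 988 to 2043, 703 to 2585 and 52 to 223 of all genes. Where this leaves a group with 1 library, that library is assumed to vary like the others. No log2 fold change of the 10 genes changed sign under another test, normalization, filter, dispersion or offset. Signs changed only when a library was left out, for Crhbp in F1 (-0.72 to 0.31), Tsc22d3 in F1 (-0.0078 to 0.55), Zbtb16 in F1 (-0.11 to 0.25), Mt2 in F1 (-0.11 to 0.17) and Tsc22d3 in F2 (-0.13 to 0.44), and between F2 and F1 for Tsc22d3 (-0.31 to 0.051), Fkbp5 (-0.21 to 0.030) and Hsd11b1 (-0.0071 to 0.027). The cause of these changes was not tested beyond the library left out.

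The replicate numbers shared by the groups do not stand for a shared animal or batch in the labels. Over genes, the gap between replicate 1 and replicate 2 correlated at -0.027 between F1 and WT, -0.083 between F2 and WT and -0.182 between F2 and F1. With the number as a block, the quasi-likelihood test gave 848, 758 and 9 genes and 0 of the 10 in F1 and in F2, and the likelihood-ratio test gave 1743, 1758 and 117 genes, with 0 of the 10 in F1 and 2 in F2. With F2's numbers exchanged, an alternative added once the data had been seen, 233 genes were called between F2 and F1.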
